A study of Mus musculus with 4 samples.

Results

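Dense distal clusters are stretches of the genome where many open regions lie close together away from promoters. They were found here from open chromatin maps of mouse keratinocytes. Open regions were taken from ATAC-seq, in which the transposase Tn5 cuts accessible DNA. Peaks from the libraries were joined if they shared 1 bp or more, giving an atlas of 82641 regions. Of these, 40159 were called in all 4 libraries. Among them, 25629 lay more than 2 kb from every transcription start site (TSS) and are called distal. Distal regions at most 12500 bp apart were stitched together, and the members are the 1273 regions in the 179 stitched clusters that held 6 or more. They made up 1.54% of the atlas, 3.17% of the regions called in all 4 libraries and 4.97% of the distal ones. The rule used the position of peaks and the fact that each was called, so the crowding of the members is not a result.

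The cells were EpCam+ CD49f hi epidermal keratinocytes, sorted from the skin of adult C57BL/6 mice treated with 5% imiquimod cream (Aldara) for 8 days, a model of psoriasis-like inflammation. The WT group and the Mapk8-KO group had 2 libraries each, and all 4 came from treated skin, so no untreated level is at hand. Mapk8 encodes the kinase JNK1. In the Mapk8-KO group a floxed Mapk8 was deleted by a Cre driven by the keratin 14 promoter, which is active in the basal epidermis and in other keratin 14 expressing epithelia. The study speaks of independent samples, and nothing states whether a library holds 1 animal or a pool, so the spread between libraries may be partly technical.

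Super-enhancers are broad groups of enhancers that are bound densely by transcription factors and coactivators, and in many cell types they lie near genes of cell identity. They are usually defined by a coactivator or histone mark, which was not measured here, so the clusters below resemble them only in their spacing. In the epidermis, AP-1 (dimers of Fos and Jun proteins, the latter phosphorylated by JNK), p63, KLF, GRHL and RUNX factors are known to act through distal elements.

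The short stretches below show what AP-1 sites in the clusters look like, at the highest-ranking member of 6 clusters that are described later. Each is read from the plus strand of GRCm38, the assembly that mm10 denotes, is centred on the AP-1 match nearest the summit, and has the AP-1 heptamer TGACTCA, or its reverse complement TGAGTCA, in capitals.
Egfr cluster, chr11:16810297-16810377: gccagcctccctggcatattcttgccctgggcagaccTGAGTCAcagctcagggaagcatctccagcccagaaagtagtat
Ereg cluster, chr5:91083224-91083304: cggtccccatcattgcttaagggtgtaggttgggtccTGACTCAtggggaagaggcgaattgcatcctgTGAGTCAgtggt
Fos cluster, chr12:85421034-85421114: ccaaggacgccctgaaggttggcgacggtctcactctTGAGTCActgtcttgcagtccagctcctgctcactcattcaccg
Klf5 cluster, chr14:99403298-99403378: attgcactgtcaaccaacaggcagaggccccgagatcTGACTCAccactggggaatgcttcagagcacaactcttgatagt
Cpeb2 cluster, chr5:43072573-43072653: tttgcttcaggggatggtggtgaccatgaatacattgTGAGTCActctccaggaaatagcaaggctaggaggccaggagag
Rap2b cluster, chr3:61269110-61269190: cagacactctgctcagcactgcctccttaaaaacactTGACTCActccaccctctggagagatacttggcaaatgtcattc
The Ereg stretch holds 2 matches and each of the other stretches holds 1. All 6 lie outside promoters: the Egfr and Ereg regions are in introns of those genes, and the other 4 are intergenic.

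A second kind of member consisted of repeated sequence. In 7 clusters at least 2 members shared a stretch of 31 or more identical bases with another member of their cluster. For this count only bases up to 100 bp from each summit were compared. Sharing held for 43 of 1273 members (3.38%), against 39 of 12772 regions (0.305%) in clusters of 2 to 5 regions. A region in a larger cluster has more partners to match, so these shares are not like for like. The longest stretch shared by 2 members, sought over the whole regions, or its first 100 bases, is shown for 3 of these clusters. A read that lies inside such a copy could have come from either place. By the study's methods, reads with several mapping places were removed. Whether that step shaped these peaks was not tested.
Scaf8 cluster, chr17:3008946-3008998 and chr17:3010027-3010079: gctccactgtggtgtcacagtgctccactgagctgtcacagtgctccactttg
Pdia4 cluster, chr6:47752704-47752803 and chr6:47763136-47763235: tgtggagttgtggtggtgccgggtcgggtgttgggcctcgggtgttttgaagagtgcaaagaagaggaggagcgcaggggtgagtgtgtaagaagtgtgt
Pls3 cluster, chrX:75744694-75744793 and chrX:75749547-75749646: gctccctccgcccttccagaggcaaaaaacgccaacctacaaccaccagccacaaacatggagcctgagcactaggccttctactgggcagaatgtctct
Both places of each pair are on the plus strand. In the Scaf8 cluster the longest shared stretch was 53 bases, in the Pdia4 cluster 599 bases and in the Pls3 cluster 401 bases. All 9 members of the Pdia4 cluster also shared 31 bases or more with members of the Ezh2 cluster, which lies next to it on chromosome 6, and whose own longest shared stretch was 942 bases. Levels and motif shares that these 7 clusters touch most are given below with and without them.

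The WT libraries held 69927 and 54856 peaks and the Mapk8-KO libraries 69583 and 49856, here and below in the order replicate 1, replicate 2. Read totals are not given by peak files, but the median summit pileup of the regions called in all 4 libraries, the number of fragments stacked at the highest point of a peak, was 49, 34, 54 and 30, so replicate 1 of each genotype was the deeper library. Promoters of keratinocyte markers were called in all 4 libraries for 7 of 10 genes, and for Krt5, Krt14 and Col17a1 only in some. Leukocyte promoters were called in all 4 for 0 of 7 genes, melanocyte promoters for 3 of 6, fibroblast promoters for 2 of 6 and endothelial promoters for 2 of 5. The deleted part of Mapk8 cannot be read from peaks, and its promoter was called in every library, at fold values of 9.27, 10.9, 9.43 and 12.1. At Krt14, whose promoter drives the Cre, the peak over the start site had a fold of 4.35 in WT 1, was not called in WT 2, and reached 15.5 and 14.6 in Mapk8-KO 1 and 2. The part of the transgene in this difference was not tested. None of these marker genes was the gene of a cluster.

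Most clusters were near the lower limit of size. Of the 179 clusters, 92 held 6 regions, 35 held 7, 20 held 8, and the largest held 14. Just outside the limit were 205 clusters of 5. Clusters of 6 regions had a median span of 32.6 kb and a median of the mean fold percentile of 40.8, and clusters of 5 had 25.4 kb and 39.96. The clusters spanned 14.6 to 93.1 kb (median 37.5) and 7.05 Mb in all, with a median gap of 5556 bp between neighbouring members. The number of clusters depends on the shallowest library, since it was 366 when membership was taken without Mapk8-KO replicate 2.

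Each cluster was assigned the protein-coding gene whose TSS was nearest to most of its members, which gave 172 different genes. In 116 clusters every member had the same nearest gene. Members were mainly between genes. Of the 1273, 751 (59.0%) were intergenic, 501 (39.4%) intronic and 21 (1.65%) exonic, whereas the other 24356 distal regions were 46.5% intergenic, 50.3% intronic and 3.22% exonic. All members lay inside the body of the assigned gene in 31 clusters, and none did in 107. For 51 clusters the nearest member was over 50 kb from the gene's TSS, so the assignment names a neighbour and not a shown target. A cluster is called by this gene below, also where it lies far from it. A TSS of some kind lay within the span of 64 clusters. The members' median distance to any TSS was 19.5 kb, against 16.0 kb for the other distal regions. Their median width (534 and 540 bp) and GC content (49.8 and 49.3%) differed little.

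The genes of the clusters with most regions had varied roles. The largest cluster held 14 regions over 86.8 kb, all intergenic, 11.1 to 97.4 kb from Plk2, a polo-like kinase, at chr13:110406191-110492945. A second cluster of 6 regions lay 325 to 349 kb from the same gene. Clusters of 12 regions were assigned to Cnot2, a subunit of the CCR4-NOT deadenylase, and Serp2, at 102 and 13.6 kb or more. Only 6 of the 12 members had Cnot2 as the nearest gene. Clusters of 11 were assigned to Ptpn3, a tyrosine phosphatase, Fabp12, a fatty acid binding protein, Adgrg7, Gas7 and Cxadr, a junctional adhesion molecule. The Adgrg7 cluster overlapped Tmem45a and not Adgrg7, and the Cxadr cluster lay 35.4 kb or more from its gene. Clusters of 10 included those assigned to Chl1, 113 kb or more away, and Kank1, whose 10 members lay inside the gene. All 11 members were intronic in both Fabp12 and Gas7. Besides Plk2, the genes Atp2b1, Ets2, Gm26657, Klf5, Pde4b and Ripk4 had 2 clusters each. Ripk4 is a kinase needed for epidermal differentiation.

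Only some genes of the epidermal and inflammatory lists owned a cluster, but for each list except the keratins the share exceeded that of all genes. The gene of a cluster was Klf5 or Ets2 for 2 of 47 epidermal transcription factors, Fos for 1 of 16 AP-1 and ATF genes, Egfr, Ereg or Epgn for 3 of 31 genes of the EGF receptor pathway, Tjp1 for 1 of 35 adhesion and junction genes, and none for 15 keratins. Of 46 annotated genes of inflammatory signalling, 5 owned a cluster: Ccl20, Il20rb, Nfkbia, Tnfaip3 and Irak3. The shares were 4.26, 6.25, 9.68, 2.86 and 0% in the order above and 10.9% for inflammatory signalling. Over all 21911 protein-coding genes, 172 (0.785%) did. The lists are short and were not tested against this share. At least 1 distal region called in all 4 libraries had its nearest TSS at 46 of the 47 epidermal factors, 25 of the 31 EGF receptor pathway genes and 7 of the 15 keratins, compared with 38.4% of all protein-coding genes.

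The level of a region was measured in 2 ways. The fold is the summit pileup over the local background, which the peak caller estimates from the same library around the peak. The second measure was the summit pileup itself, recovered from the fold and the p-value of each peak. Both were turned into percentiles among the regions called in all 4 libraries, separately in each library. Members were below the other distal regions by fold and above them by pileup. Values of the libraries are given in the order WT 1 and 2, then Mapk8-KO 1 and 2. The members' median fold percentile was 33.0, 36.3, 35.1 and 36.4, and that of the other distal regions was 50.1, 48.5, 48.8 and 45.7. Members were lower in 4 of 4 libraries, by 13.0 points (SD 3.26, n = 4 libraries). By pileup the members' median percentile was 58.8, 57.9, 59.1 and 55.6, higher than that of the other distal regions in 4 of 4 libraries, by 13.7 points (SD 0.917, n = 4). No test was made, since the libraries share the same regions.

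The local background moved with these levels. It was 6.56, 4.13, 7.19 and 3.76 fragments at the median member, which was 1.58 to 1.69 times that of the other distal regions. Median pileup was 56, 38, 62 and 33 fragments for members and 46, 31, 49 and 27 for the other distal regions. By the p-value of the peaks, which weighs both, the members were higher by only 3.56 percentile points. Without the 7 clusters of shared sequence the fold difference was a decrease of 11.9 points on average and the pileup difference was 13.5 points. The measures also differed by the number of regions stitched. In WT 1 the median fold percentile was 58.6 for single distal regions, 45.9 for those in pairs, 35.8 in clusters of 5 and 33.0 in clusters of 6 or more, while the median pileup percentile was 39.6, 48.5, 57.6 and 58.8 and the background 3.07, 4.54, 6.28 and 6.56. The other 3 libraries had the same order between single regions and clusters of 6 or more in all 3 measures. Between neighbouring sizes the order was not kept throughout, since the fold percentile in Mapk8-KO 1 was 33.8 in clusters of 5 and 35.1 in those of 6 or more, and in Mapk8-KO 2 it was 39.1 in clusters of 3 and 39.5 in those of 4.

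**Figure D1:**
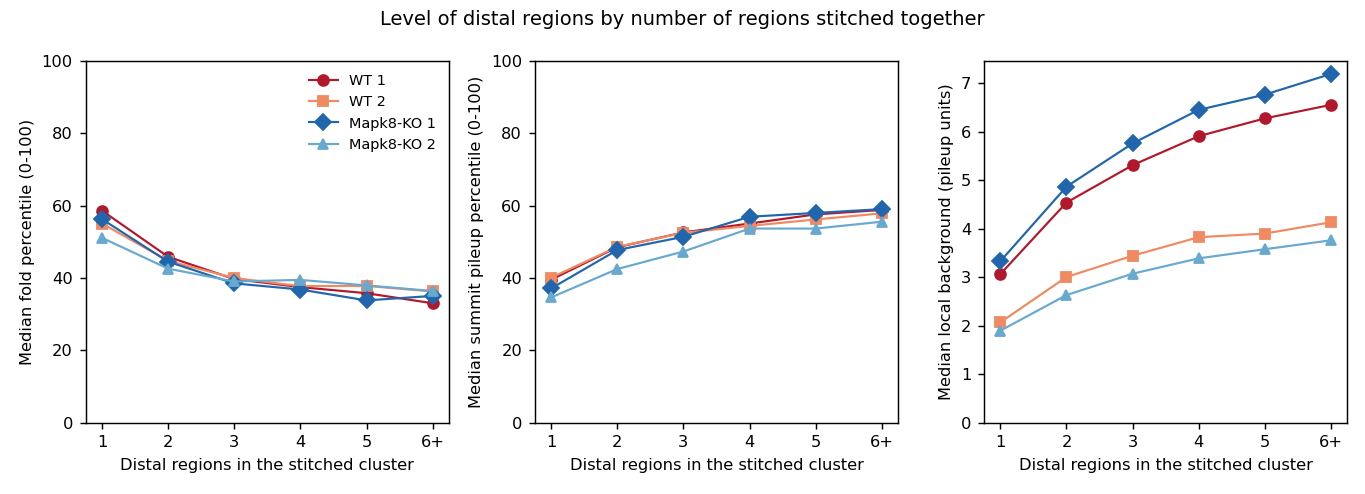
Median fold percentile (left), median summit pileup percentile (middle) and median local background in pileup units (right) of distal regions called in all 4 libraries, by the number of regions in their stitched cluster, with 1 line per library. In WT 1 the fold percentile goes from 58.6 to 33.0 and the pileup percentile from 39.6 to 58.8 between single regions and clusters of 6 or more.

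Levels differed widely among the clusters. The mean fold percentile of a cluster, averaged over the 4 libraries, ran from 3.99 to 73.0 (median 40.1), and the mean pileup percentile from 24.6 to 93.1 (median 55.6). The highest by fold were the clusters at Cpeb2 (73.0), a translation regulator, Prkca (72.6), protein kinase C alpha, Rap2b (72.3), a small GTPase, Atp2b1 (64.8), a plasma membrane calcium pump, and Map2 (62.0). The Cpeb2 cluster had mean fold percentiles of 74.2, 76.1, 70.3 and 71.4 and AP-1 matches in 3 of its 6 regions. Its strongest member, shown above, had pileups of 211, 136, 244 and 138. The lowest were the clusters at Gm10354 (3.99), 4930572O03Rik (5.601) and Pls3 (10.3), none of which held a region with an AP-1 match. The 3 highest by pileup were Pdia4 (93.1), Scaf8 (91.6) and Ezh2 (91.3), which were named after their values were seen. All 3 are clusters of shared sequence, with mean fold percentiles of 40.6, 26.9 and 12.7, and their background was 24.0, 23.2 and 27.5 fragments in WT 1.

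Within a cluster the members were unequal. The highest pileup was 3.33 times the lowest at the median cluster, averaged over the libraries, with a range of 1.69 to 8.80. The same member had the highest pileup in all 4 libraries in 84 of 179 clusters, and the highest fold in 83.

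The clusters at the EGF receptor and 2 of its ligands show how members vary. The receptor, encoded by Egfr, drives keratinocyte proliferation, and epiregulin (Ereg) and epigen (Epgn) are among its ligands. The Egfr cluster, chr11:16759975-16817616, held 9 members, 8 in introns and 1 in an exon, from 7.76 kb downstream of the nearest start site. Its mean fold percentile was 45.6, 44.1, 44.6 and 41.0, and its mean pileup percentile was 62.97, 56.7, 62.6 and 54.4, so the groups overlapped in both measures. The member with most reads, chr11:16800442-16801120, had pileups of 196, 120, 205 and 110 and fold percentiles of 68.6, 73.2, 67.2 and 81.0. Its neighbour at chr11:16804081-16804364 had pileups of 56, 39, 72 and 30, at or above the library medians, but fold percentiles of 1.39, 2.88, 4.52 and 1.07, with a background of 14.1, 8.51, 14.8 and 7.55 fragments. Of the 9, 3 had an AP-1 match. The member at chr11:16791238-16791618, with AP-1 and KLF matches, had fold percentiles of 52.2 and 42.9 in WT and 30.2 and 26.1 in Mapk8-KO. These did not overlap. The member at chr11:16759975-16760404, with no match, also ranked higher in both WT libraries, with 63.8 and 41.2 against 32.7 and 10.6. The member at chr11:16769175-16769767, with a TEAD match, went the other way, with 50.3 and 28.8 in WT and 59.4 and 67.8 in Mapk8-KO, as did that at chr11:16781417-16782016 by a small gap (12.0, 11.8, 13.2 and 49.8). The other 5 overlapped, and no member of the cluster passed the test given below.

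The Epgn and Ereg clusters lie beside each other on chromosome 5. The 8 members of the Epgn cluster were all in introns of Mthfd2l, the gene next to Epgn, and the first, chr5:90980035-90980609, had a p63 match and no AP-1 match. Its pileups were 105, 70, 81 and 45, with fold percentiles of 96.5, 98.99, 89.8 and 91.3, both WT libraries above the Mapk8-KO ones by fold. Of the 6 Ereg members, the one whose sequence is shown above had fold percentiles of 94.5, 92.2, 99.3 and 91.4, where the groups overlapped. Another, chr5:91098053-91098602, with AP-1 and p63 matches, had 37.6 and 42.1 in WT and 67.4 and 61.6 in Mapk8-KO. The mean fold percentile of the Epgn cluster was 34.2, 37.9, 34.2 and 36.8, which overlapped. That of the Ereg cluster was 43.1, 44.4, 47.8 and 49.3, with both Mapk8-KO libraries higher. By pileup the Epgn cluster had 44.7, 42.9, 41.0 and 37.2, with both WT libraries higher. The Ereg cluster had 52.9, 47.0, 57.8 and 53.3 by pileup, with both Mapk8-KO libraries higher.

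The Fos cluster, chr12:85420890-85486353, held 8 members on both sides of Fos, with an AP-1 match in 1. Its fold percentiles were among the lower ones, at 29.9, 31.4, 27.9 and 37.5. The member with the highest pileups in 3 libraries lay at chr12:85455040-85455707 with 97, 72, 126 and 87 fragments and fold percentiles of 19.0, 25.9, 21.0 and 39.2.

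**Figure D2:**
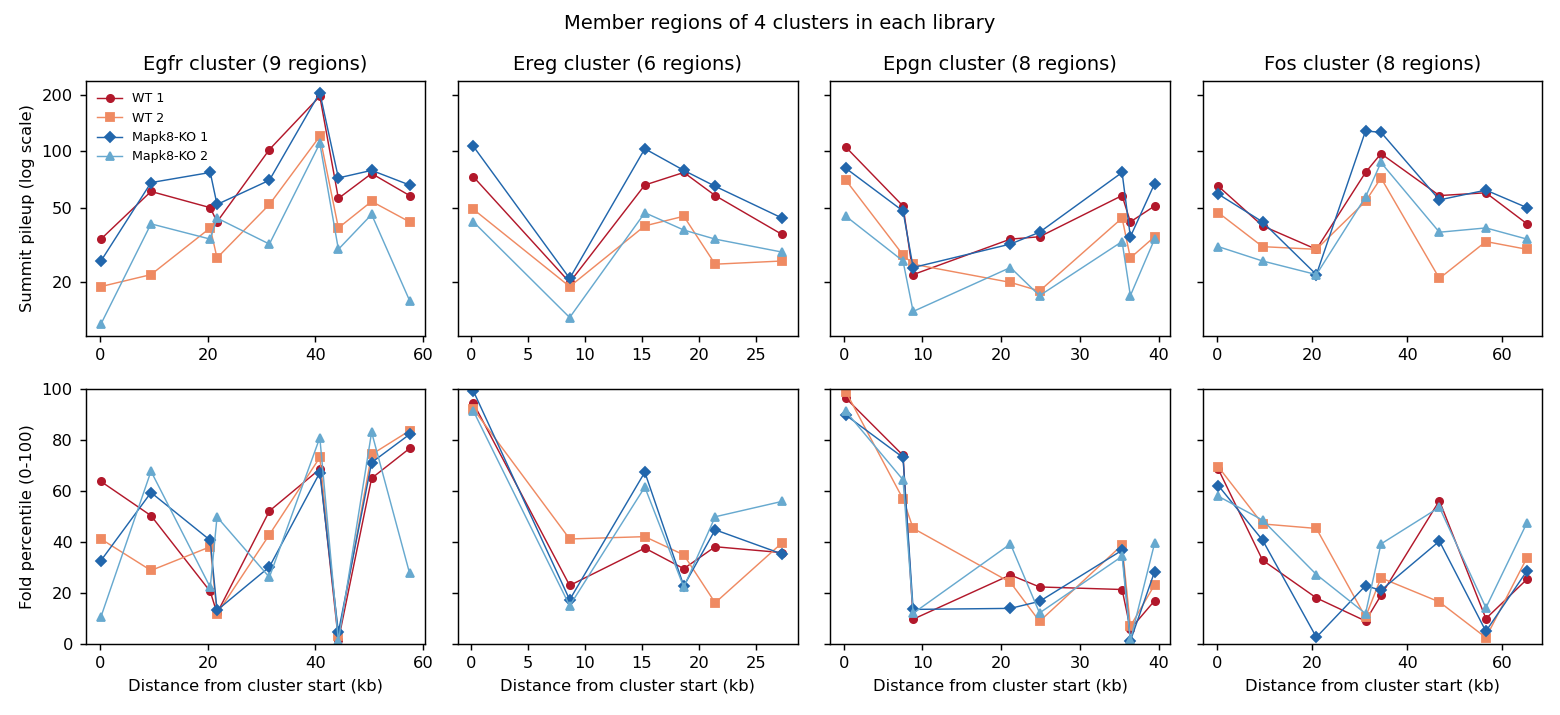
Summit pileup (top, log scale) and fold percentile (bottom) of each member region of the Egfr, Ereg, Epgn and Fos clusters against its distance from the start of the cluster in kb, with 1 line per library. The Egfr member with pileups of 196, 120, 205 and 110 stands beside one with fold percentiles between 1.07 and 4.52.

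Clusters at inflammatory genes also differed from each other. That at Tnfaip3, an inhibitor of NF-kB signalling, lay 11.2 kb or more from the gene and had mean fold percentiles of 58.9, 61.2, 64.2 and 59.97. That at Nfkbia, the NF-kB inhibitor alpha, was the most compact, with 6 members in 14.6 kb, and had 13.2, 16.0, 14.4 and 13.2, whereas its mean pileup percentiles were 58.4, 58.6, 62.4 and 47.9. The cluster at Ccl20, a chemokine, had 38.5, 37.6, 44.2 and 45.7, with AP-1 matches in 4 of 7 members. Mean fold percentiles were 46.8, 41.0, 43.1 and 35.9 at Il20rb, a receptor subunit for IL-20 cytokines, and 25.4, 36.7, 29.9 and 27.5 at Irak3, a negative regulator of Toll-like receptor signalling. By fold the clusters at Tnfaip3, Nfkbia, Il20rb and Irak3 overlapped between genotypes, and the Ccl20 cluster did not, being higher in both Mapk8-KO libraries. By pileup the Ccl20 cluster overlapped, at 74.6, 66.9, 76.7 and 68.9, and the Irak3 cluster, at 66.5, 66.8, 65.6 and 55.3, did not.

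Of the 2 Ets2 clusters, the first was intergenic, 9.08 kb or more upstream, and the second had 4 of its 7 members in introns of Ets2. Their means over the libraries were 54.5 and 47.3, and the 2 Klf5 clusters, 92.3 kb and more from the gene, had 47.9 and 41.8. Both genes encode transcription factors of the epidermis. The Klf5 member shown above had pileups of 108, 54, 92 and 29 with fold percentiles of 99.1, 91.0, 97.5 and 72.9. The cluster near Tjp1, which encodes the tight junction protein ZO-1, had 42.3, 45.4, 45.1 and 49.2. In all 5 of these clusters the fold percentiles of the genotypes overlapped. By pileup both WT libraries were above both Mapk8-KO ones in the Tjp1 cluster and in the nearer Klf5 cluster.

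Matches to 10 motifs, on either strand, were sought up to 100 bp from each summit. An AP-1 heptamer was found in 369 of 1273 members (29.0%, Wilson 95% interval 26.6 to 31.5%), in 32.8% of the other distal regions (32.2 to 33.4%) and in 10.1% of promoter regions. Without the clusters of shared sequence, where 4 of 57 members had one, the share was 30.0% (27.5 to 32.7%). These intervals cover counting error only. KLF heptamers (CACACCC) were found in 17.0% of members and 14.4% of other distal regions, RUNX hexamers (TGTGGT) in 16.4 and 14.5%, and p63 motifs in 15.6 and 14.5%. Without the clusters of shared sequence the RUNX share was 14.5% and the KLF share 16.3%. KLF and RUNX matches can overlap, since both hold TGTG on one strand. The share was 3.46 and 4.48% for GRHL (AACCNGTT) and 11.1 and 12.2% for the GATA factors, whose hexamer was AGATAA. TEAD motifs (GGAATG) were found in 15.9 and 14.9% and CEBP motifs (TTGCNNAA) in 12.7 and 13.7%. The ETS heptamer CGGAAGT was rare, at 0.786 and 0.842%, and so were CTCF motifs, at 0.550 and 1.499%. Per cluster, 65 held 2 regions with an AP-1 match, 41 held 1 and 18 held none. The most was 7, in the 10 intronic members of the cluster in Myo1e, which encodes a myosin.

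**Figure D3:**
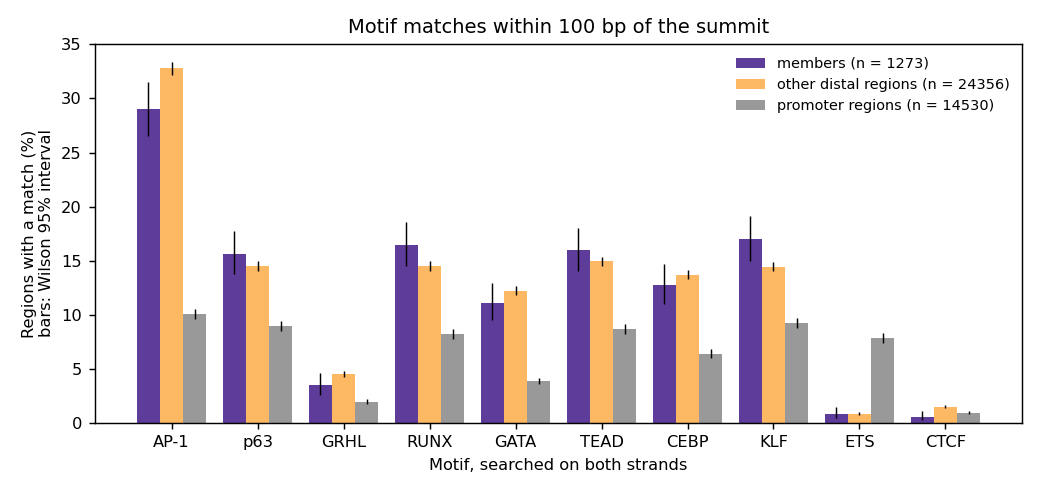
Share of regions with a motif match within 100 bp of the summit, for members, other distal regions and promoter regions called in all 4 libraries, with Wilson 95% intervals as error bars. AP-1 is the most frequent motif in members (29.0%) and in other distal regions (32.8%).

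The members were then compared between genotypes. The question was which members differ in accessibility when JNK1 is lost from the epidermis of treated skin. In the median member the levels differed little. The median fold percentile averaged 34.7 (SD 2.30, n = 2) in WT and 35.8 (SD 0.959, n = 2) in Mapk8-KO, and the 4 libraries overlapped. By limma on log2 fold, fitted across all 40159 regions, 0 of the 1273 members passed a Benjamini-Hochberg adjusted p of 0.05 in either direction, against 0% of all regions. The smallest adjusted p of a member was 0.274. At an unadjusted p under 0.05 there were 72 members (5.66%), against 7.05% of all regions. The median log2 difference, WT minus Mapk8-KO, was -0.01 for members and -0.01 for all regions, with a median standard error of 0.21 for members. Without Mapk8-KO replicate 1, 18 members passed as higher in WT (1.77% of all regions did) and 3 as higher in Mapk8-KO (0.259% of all regions did). That fit sets both WT libraries against Mapk8-KO 2 alone, the library with fewest peaks, and assumes that it varies like the WT libraries.

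With log2 summit pileup in place of fold, 7 members passed as higher in WT (0.550%, against 0.498% of all regions) and 0 as higher in Mapk8-KO (against 0.110%), and 130 had an unadjusted p under 0.05 (10.2%, against 11.3%). After quantile normalization of the pileups in place of median centring, 0 members passed in either direction. Of all regions, 0.0647% then passed as higher in WT and 0.00747% as higher in Mapk8-KO. The 7 were 1 member each of the clusters at Fhl2, Met, Prkca, Trps1, Il34, Lypd6b and Atp2b1. They are the only members past the threshold by pileup with median centring in the fit on genotype alone. A fit that also holds the replicate number is given in the last section. Their short summit sequences are given here, again from the plus strand with AP-1 matches in capitals.
Fhl2 cluster, chr1:43157780-43157860: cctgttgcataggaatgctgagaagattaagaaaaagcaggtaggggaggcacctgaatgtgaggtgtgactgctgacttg
Met cluster, chr6:17409855-17409935: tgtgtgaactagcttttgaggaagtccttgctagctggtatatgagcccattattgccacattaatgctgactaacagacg
Prkca cluster, chr11:108011448-108011528: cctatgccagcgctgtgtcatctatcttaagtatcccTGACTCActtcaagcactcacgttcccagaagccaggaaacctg
Trps1 cluster, chr15:50963920-50964000: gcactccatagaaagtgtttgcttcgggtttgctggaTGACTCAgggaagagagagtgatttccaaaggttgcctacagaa
Il34 cluster, chr8:110803229-110803309: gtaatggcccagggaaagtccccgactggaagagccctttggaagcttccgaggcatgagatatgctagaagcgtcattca
Atp2b1 cluster, chr10:98954382-98954462: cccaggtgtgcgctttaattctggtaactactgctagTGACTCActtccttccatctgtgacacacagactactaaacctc
Lypd6b cluster, chr2:49714609-49714689: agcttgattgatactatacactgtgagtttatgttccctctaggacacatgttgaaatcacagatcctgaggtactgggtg
An AP-1 match was present in 3 of the 7, in the Prkca, Trps1 and Atp2b1 clusters. Fhl2, a LIM domain protein, had an intronic member with pileups of 66 and 50 in WT and 43 and 11 in Mapk8-KO, a log2 difference of 1.38 (SE 0.26, limma adjusted p = 0.000465). Most of it came from Mapk8-KO 2, where its fold percentile was 0.51. Met, the receptor of hepatocyte growth factor, had an intergenic member 53.7 kb from its TSS with pileups of 108, 86, 84 and 34, a log2 difference of 0.83 (SE 0.19, limma adjusted p = 0.0111). The Prkca member was intronic, with pileups of 55, 55, 48 and 14 and a log2 difference of 1.06 (SE 0.25, limma adjusted p = 0.0143).

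Trps1 encodes a GATA-type repressor of transcription active in hair follicles. Its member lay 73.5 kb from the gene, with pileups of 76, 57, 50 and 23 (limma adjusted p = 0.0166). Il34 encodes a cytokine made by keratinocytes that maintains Langerhans cells. Its intronic member, with a p63 match, had 94, 69, 69 and 31 (limma adjusted p = 0.0341) and fold percentiles of 68.6, 69.5, 33.9 and 37.8. The Atp2b1 member had 59, 45, 40 and 18 fragments and an adjusted p of 0.0481 from limma. At all 7 members both WT libraries were above both Mapk8-KO libraries once each pileup was divided by its library's median.

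Members that ranked apart between genotypes were counted without a test. A member was counted where the lower percentile of a genotype lay at least 10 points above the higher one of the other. By fold, 51 members ranked higher in WT (4.01%, against 4.65% of all regions), and 42 (3.30%, against 4.07%) did so in Mapk8-KO. By pileup, 58 members (4.56%, against 4.49%) and 30 members (2.36%, against 3.70%) did. With all 4 libraries the share of members was thus at or below that of all regions, except for the pileup in WT, where it was nearly equal. These counts depend on the number of libraries that must separate. With any 1 of the 4 left out, 108 to 175 members ranked higher by fold in WT (8.48 to 13.7%, against 9.54 to 15.4% of all regions), and 113 to 206 (8.88 to 16.2%, against 9.48 to 16.1%) did so in Mapk8-KO.

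The largest gaps in either direction lay in the same cluster. Lypd6b, which encodes a Ly6 family protein, is the nearest gene of 6 members in introns of Kif5c on chromosome 2. The member at chr2:49714430-49714820, the Lypd6b stretch above, had fold percentiles of 78.9 and 84.6 in WT and 20.1 and 24.7 in Mapk8-KO, with pileups of 41, 36, 22 and 15 (log2 difference by pileup 1.06, SE 0.29, limma adjusted p = 0.0473). Its neighbour at chr2:49727134-49727635 went the other way, with fold percentiles of 37.1 and 31.5 in WT and 91.1 and 77.1 in Mapk8-KO and pileups of 24, 17, 51 and 28. There the log2 difference by pileup was -0.92 (SE 0.28, limma adjusted p = 0.0966). The summit of that neighbour reads as follows, with no AP-1 match within 100 bp in either.
Lypd6b cluster, chr2:49727297-49727377: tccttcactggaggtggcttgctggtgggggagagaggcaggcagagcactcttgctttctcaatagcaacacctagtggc
The next largest gaps to WT were the Il34 and Met members given above. Those to Mapk8-KO were an intergenic member of the Ism1 cluster, with fold percentiles of 19.6, 34.8, 80.7 and 72.0, and one of the P2ry1 cluster, with 53.7, 49.3, 84.4 and 81.6. Ism1 encodes a secreted protein and P2ry1 a purinergic receptor.

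**Figure D4:**
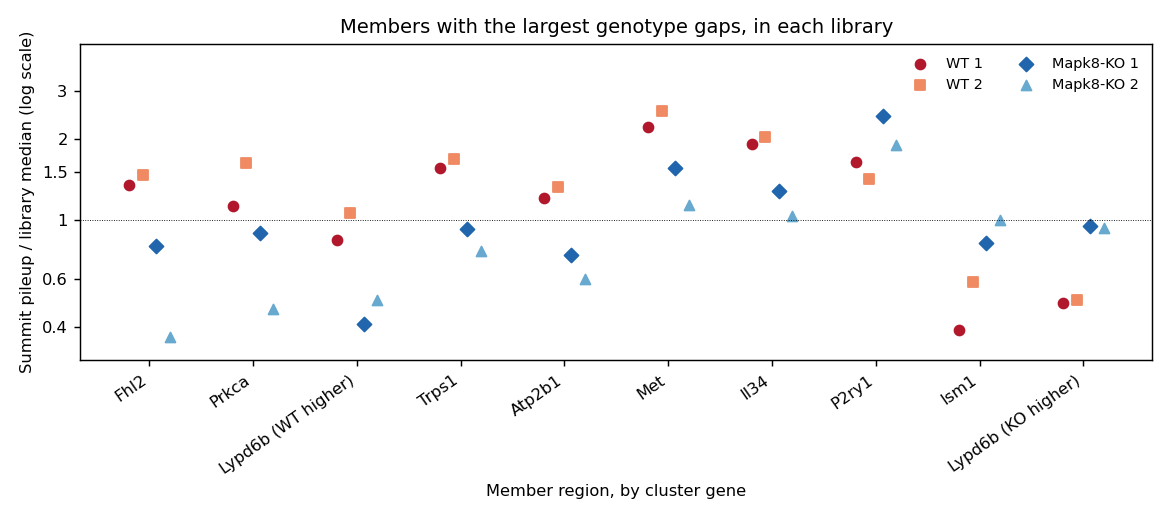
Summit pileup divided by the median pileup of the library (log scale) for the 7 members past the threshold by pileup and the 3 with the largest rank gaps to Mapk8-KO, with 1 point per library. In the first 7 both WT points lie above both Mapk8-KO points, and in the last 3 below.

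These gaps were also counted by the presence of an AP-1 match, and the difference between the kinds of member was not tested. Among 369 members with a match, 28 (7.59%) ranked higher by fold in WT and 8 (2.17%) in Mapk8-KO, and among 904 members without one, 23 (2.54%) and 34 (3.76%) did. The other distal regions with a match had 7.53 and 2.30%, and those without 5.38 and 4.70%. That AP-1 sites tended to rank higher in WT was known from earlier results of these data, so this is not independent support. The median fold percentile of members with a match was 39.5 and 42.1 in WT and 38.3 and 36.3 in Mapk8-KO, and that of members without was 30.9999, 34.3, 33.7 and 36.5. The difference between the kinds of member was thus present in 3 libraries and nearly nil in Mapk8-KO 2, the library with fewest peaks. In that library the other distal regions had medians of 51.1 with a match and 43.4 without. The part of depth in the members' difference was not tested.

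Whole clusters were compared by the mean of their members, with no test. The mean fold percentile of a cluster was higher in both WT libraries than in both Mapk8-KO libraries for 28 of 179 clusters (15.6%, against 19.7% of the 5061 clusters of 2 to 5 regions) and the other way round for 36 (20.1%, against 16.6%). By pileup the counts were 47 (26.3%, against 24.5%) and 30 (16.8%, against 16.5%). The largest gaps to WT by fold were at 4933412E24Rik, with 59.1 and 62.1 in WT and 52.3 and 31.9 in Mapk8-KO, at Slc2a1, the glucose transporter GLUT1, with 54.8, 52.3, 45.7 and 43.3, and at Rap2b, with 80.0, 77.2, 70.9 and 61.1. The largest to Mapk8-KO were at Ell2, an elongation factor of RNA polymerase II, with 44.6, 49.0, 59.9 and 55.1, at Nt5c3, a nucleotidase, with 39.8, 38.9, 45.8 and 46.7, and at Ccl20, given above. By pileup the 4933412E24Rik cluster, at 46.1, 45.0, 35.6 and 21.9, and the Slc2a1 and Rap2b clusters also stayed higher in both WT libraries. The Ell2 cluster had 55.5, 56.5, 63.5 and 52.7 and the Nt5c3 cluster 75.7, 71.0, 74.3 and 71.0, which overlapped, as did the Ccl20 cluster.

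**Figure D5:**
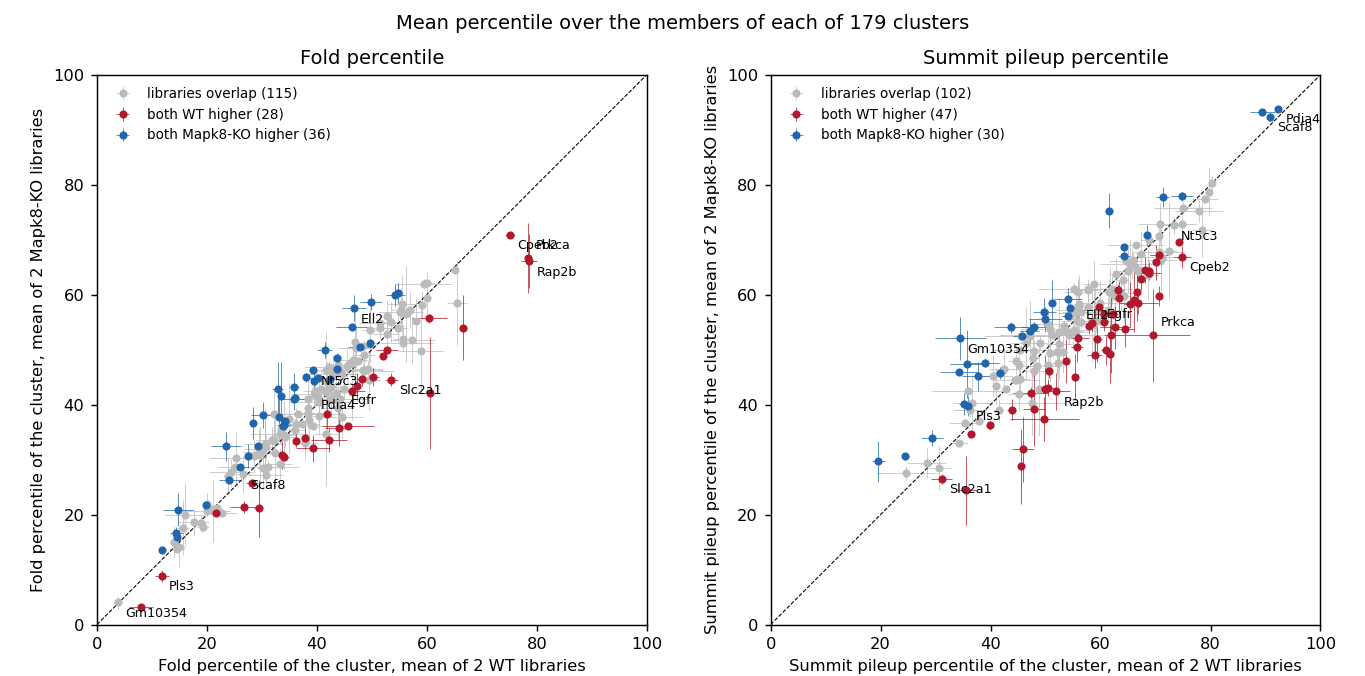
Mean percentile of each of the 179 clusters in WT (horizontal) and Mapk8-KO (vertical), by fold (left) and by summit pileup (right), with points at the mean of 2 libraries and bars between them. By fold 28 clusters lie higher in both WT libraries and 36 in both Mapk8-KO libraries, and by pileup 47 and 30.

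Genotype-specific regions inside the clusters were few. Besides the members, the clusters spanned 36 promoter regions called in all 4 libraries and 322 regions called in 1 to 3 libraries. Of the 322, 12 were called in both WT libraries and no Mapk8-KO library (3.73%, against 4.23% of 42482 such regions in the atlas), and 12 in both Mapk8-KO libraries and no WT library (3.73%, against 3.22%). These 24 regions lay in 22 clusters.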

How the data were processed

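ATAC-seq peaks of 2 WT and 2 Mapk8-KO keratinocyte libraries were analysed. The authors called peaks with MACS2, per library. The submitters' processing notes also name Trimmomatic 0.36, STAR 2.5.3, Picard, SAMtools and mm10, whereas the study's methods name Bowtie2. No control library is described. The deposited files hold for each peak a fold (ratio of summit pileup to local background), −log10 p, −log10 q and a score, which is 10 times −log10 q, rounded down, in all but 1 to 6 peaks of a library and was not used. All q-values were below 0.01.

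The highest peak of a library in a region gave its fold. From fold = (pileup + 1)/(background + 1) and the Poisson p-value both terms were solved. At least 99.995% of pileups came out whole within 0.05. TSSs came from GENCODE M21 basic. Log2 fold was quantile normalized and tested with limma 3.58.1 (R 4.3.3, variance trend, Benjamini-Hochberg over 40159 regions). Members, gene lists and motifs were chosen with earlier results of these data known. Both steps were tested on simulated data.

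Clusters named were the 10 with most regions, the 5 highest and 3 lowest by mean fold percentile, the 3 largest genotype gaps each way and those whose gene is in a list. Regions named were the strongest member of such clusters and the 3 largest rank gaps each way, plus members past the pileup test. The 6 AP-1 stretches, the members of the Egfr, Epgn, Ereg, Fos and Plk2 clusters and the clusters of shared sequence were chosen after seeing values. Sequences are from the GRCm38 reference (RefSeq).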

Additional observations from a re-analysis of the deposited data

How the results depend on the processing

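Counts of clusters and members follow the definition. With stitching at 5 kb there were 6 clusters with 42 members, at 20 kb 464 with 3628, beyond 5 kb from every TSS 113 with 793, with 5 or more regions 384 with 2298 and with 8 or more 52 with 476. The leave-one-out runs, which take membership from 3 libraries, gave 186 to 366 clusters and 1319 to 2669 members. The fold percentile difference between members and other distal regions stayed negative in every alternative of the definition, at -33.1 with 5 kb and -9.50 with 20 kb. Each such alternative still chose members by their neighbours, so the kept sign is not independent of the rule. The difference reversed to 3.56 by −log10 p and to 13.7 by pileup. The AP-1 difference of -3.79 points (members minus other distal regions) stayed negative in each alternative, at -16.0 with 5 kb, -1.52 with 20 kb and -1.35 with the motif sought across the merged region.

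Members higher in WT by limma numbered 7 with log2 pileup, median centred, and 0 to 18 when a library was left out; those higher in Mapk8-KO numbered 0 to 3. Of members with a higher rank in WT there were 96 at a gap of 5 points (7.54%, against 8.66% of all regions), 9 at 20 (0.707%, against 1.23%), and 108 to 175 when a library was left out, and in Mapk8-KO 106 (8.33%, against 8.61%), 8 (0.628%, against 0.777%), and 113 to 206. The median member percentile, WT minus Mapk8-KO, was -1.08, 0.896 by −log10 p, 1.04 by pileup and -2.71 to 0.552 when a library was left out. Clusters higher in WT numbered 47 by pileup.

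Replicate numbers recur in both genotypes, but the changes from replicate 1 to 2 correlated at a Pearson r of only 0.102 over regions (2 pairs), so they are taken to share only a number. With the replicate block limma called 0 members in either direction by fold, 9 higher in WT (0.707%, as of all regions) and 4 in Mapk8-KO (0.314%, against 0.254%) by pileup. By rank 84 members were higher in WT (6.60%, against 7.53%), as were 84 in Mapk8-KO (against 7.18%), and the median difference was -1.08.

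Alternatives by pileup percentile, pileup with quantile normalization or block, and without shared sequence were chosen after seeing the data. Over all results, 66 alternatives stayed within the spread or 1.5 times the count, 37 moved further and 2 reversed. With 2 libraries a group, and pileups of 30 to 54 at the median region, small differences are not detectable.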
